A study of Oncorhynchus mykiss with 23 samples.

Results

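The skeletal muscle response to 11 days of refeeding was followed in 1-year-old rainbow trout (Oncorhynchus mykiss) of a spring strain that weighed 132 g at the outset. The 5 trout of the F0 group were killed at the end of 30 days without food, and the 5 trout of the RF11 group went through the same fast and were then fed for 11 days at 3 times the normal ration. These are 10 of the 23 fish of the study, the others being 5 trout refed for 4 days (RF4), 4 trout refed for 36 days (RF36) and 4 continuously fed trout (C0). RNA from a transverse slice of fast muscle taken under the dorsal fin was hybridised to a 1-colour Agilent oligonucleotide array, with 1 array per fish. According to the methods, the F0 and RF11 trout came from the same tank and were sampled 11 days apart, so that refeeding and the passage of time cannot be told apart. The slice also holds connective tissue, vessels and blood, and in such a sample fewer cells of a type and less RNA per cell cannot be told apart.

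When a fish is deprived of food, its fast muscle serves as a store of protein. Contractile proteins are tagged with ubiquitin by ligases such as FBXO32 (atrogin-1) and TRIM63 (MuRF1) and degraded by the proteasome, while organelles and protein aggregates are delivered to lysosomes by autophagy. Fuel use shifts from glucose to fatty acids, and growth signals that run through insulin, growth hormone, insulin-like growth factors and the mTOR kinase fall. Feeding restores those signals, and fish muscle then grows both by enlarging existing fibres and by adding fibres from dividing precursor cells.

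All levels below are log2 signals relative to the 75th percentile of the same array, so a level of 0 is that percentile and a difference of 1 is 2-fold. Levels of different probes are not comparable with each other. Values per fish are given in the order of the sample numbers, which were 2, 3, 4, 5 and 7 for F0 and 1, 2, 4, 5 and 6 for RF11, and p-values are from limma, adjusted by the Benjamini-Hochberg method over all probes tested. Between 50.5 and 61.4% of the spots were well above background on the F0 arrays and between 49.2 and 63.6% on the RF11 arrays. Arrays correlated with an r of 0.958 to 0.978 within F0, of 0.964 to 0.976 within RF11 and of 0.918 to 0.946 between the groups, and the first principal component of the 10 arrays, which held 46.7% of the variance, separated them. The median SD between fish was 0.35 in F0 and 0.33 in RF11. Of the marker lists checked, fast fibre had 4 of 10 genes with a named probe, all well above background, with TNNC2 and PVALB higher and CKM and ATP2A1 (-1.29) lower in RF11, and their summed linear level was 479 to 662 in F0 and 1080 to 1840 in RF11. Slow fibre had 1 of 11 (ATP2A2, 0.509 to 0.759 in F0 and 0.848 to 0.982 in RF11), endothelium 5 of 10 (6.99 to 10.8 in F0 and 4.48 to 6.18 in RF11) and leukocytes 3 of 12 (3.34 to 7.28 in F0 and 1.95 to 2.99 in RF11), with no overlap between the groups in any of these sums. All markers in these sums were named from a heat map listing of probes that the study had picked because they differed among these fish. The lack of overlap is therefore not separate support. Over all tested probes, 21.3% did not overlap. Scanner-file probes for fast myosin, fast MLC1 and fast MLC3 were not in the fast fibre sum. They changed by 0.11 (limma, adjusted p = 0.772), 0.26 (adjusted p = 0.473) and 0.64 (adjusted p = 0.0464), so that only the last passed. Slow myosin probes were likewise outside the slow fibre list. The brighter of them read 4.88, 3.19, 4.79, -0.86 and 1.03 in the F0 trout and -0.15, 0.70, 5.23, -0.27 and 0.81 in the RF11 trout. It thus varied widely between fish within each group, and the groups overlapped. A sum weighs bright probes most, and the members of a list did not all move together: MCAM (1.19) and the leukocyte gene CYBB (1.16) rose, CAV1, CLDN5, CLEC14A, CXCR2 and DOCK2 fell, and KDR did not pass. None of the 9 blood cell and 7 fat cell markers could be matched to a named probe, so these cell types were not checked.

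A large share of the muscle transcriptome differed between the refed and the fasted fish. Among 33611 probes bright enough to be tested, 9230 (27.5%) passed an adjusted p of 0.05, and 12894 passed an unadjusted p of 0.05. Signals were higher in RF11 for 5111 probes (15.2%) and lower for 4119 (12.3%). The change was at least 2-fold for 2797 of the higher and 1737 of the lower probes, at least 4-fold for 564 and 298, and at least 16-fold for 21 and 20. The median change over all tested probes was -0.07. When each array was scaled to its median in place of its 75th percentile, this median became 0.07 and the split moved from 55.4% to 70.5% higher, with 5181 probes called higher and 2169 lower. Under both scalings 4799 probes were called higher, 2162 lower and 0 in opposite directions. The signals of the 5 RF11 fish lay wholly above or wholly below those of the 5 F0 fish for 7152 probes (21.3%), 4267 of them higher and 2885 lower. A further view of the extremes is given by detection: 94 probes were well above background on all RF11 arrays and on no F0 array, and 36 on all F0 arrays and on no RF11 array. The arrays lay on 3 slides, and the count was 9546 with the slide as a block. Within each slide, between 98.8 and 99.9% of the 9230 probes changed in the same direction as over all slides. These probes were called from the same arrays, so a high share follows from how they were picked and is not separate support.

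**Figure D1:**
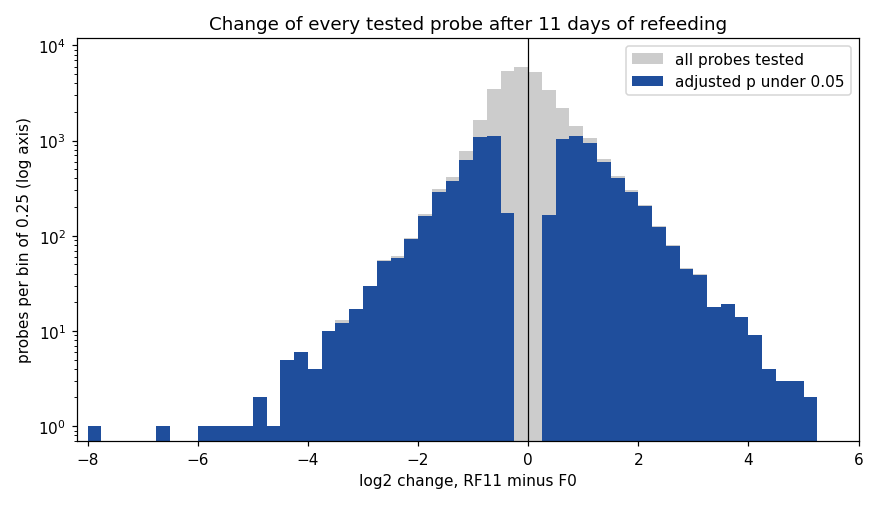
Number of probes (vertical axis, log scale) in bins of 0.25 of the log2 change between RF11 and F0 (horizontal axis), for all 33611 tested probes in grey and the 9230 with an adjusted p under 0.05 in blue. The falls reach -7.95 and the rises 5.2, and few probes within 0.5 of 0 passed the threshold.

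Most probes of this array have no gene name in the files used here. A single tested probe was taken for each of 689 named genes, of which 192 were higher, 449 lower and 48 did not pass. That 93% of the named genes passed, against 27.5% of all probes and 25.3% of the probes without a name, follows from how they were named: 675 of them take their name from a heat map listing of probes that the study had picked because they differed among these same fish, and the copy read holds mainly genes that were low after refeeding. The counts of the gene lists below are therefore descriptions of those lists and are not independent evidence of their direction. Names are the closest database match of each probe. Among 175 genes with several tested probes, 6 had probes that passed in both directions (APMAP, CROT, DCN, DDIT4L, JGN1A and PVALB).

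A set of 60 probes that carry a gene name in the scanner files themselves was not picked by outcome, and 55 of these were outside the heat map listing. Of the 55, 35 were tested, and 7 were higher and 4 lower, which is 31.4% and near the share over all probes. By class, of the 9 tested probes for proteolysis 0 were higher and 6 lower, including 3 that were in the listing as well, whereas 2 of 6 tested myogenic and mesoderm regulators and 2 of 6 contractile proteins were higher and 0 lower. Among 7 tested probes for metabolism, 3 were higher and 1, which was in the listing as well, was lower. Of the 7 tested probes for oxidative defence, the detoxifying enzyme glutathione S-transferase (GST) rose by 1.41 (adjusted p = 0.00206), and 6 did not pass, with changes of -0.17 for catalase, 0.26 and 0.37 for the superoxide dismutases SOD1 and SOD2, 0.03 for GPX1, 0.24 for HPGPX1 and 0.12 for NRF2. The fatty acid sensing receptor PPARA fell by 0.46 (adjusted p = 0.0367). Among contractile probes, fast MLC3 rose by 0.64 (adjusted p = 0.0464) and the M-band protein MYOM1 by 1.11 (adjusted p = 0.0196), of which the latter did not pass without F0 fish 2 (0.84, adjusted p = 0.0694), while the differences for fast myosin (0.11), fast MLC1 (0.26) and both slow myosin probes (-1.34 and -0.29, standard errors 1.71 and 1.51) did not pass.

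Most named genes of the ubiquitin system were lower after refeeding, all of them taken from the heat map listing. The list of ubiquitin ligases and conjugating enzymes also holds the deubiquitinating enzyme USP2. Of its 32 tested genes, 29 fell, 2 rose and 1 did not pass (median change -1.51, against -0.07 over all probes). Over all probes 12.3% were lower, and of the 689 named genes 449 were. All 32 members of the list were named from probes picked by outcome, so their count is not separate support. FBXO32, the muscle-specific ligase subunit that marks atrophying muscle, read 0.14, 3.86, 1.66, 1.02 and 3.54 in the F0 trout and -4.69, -2.49, -2.35, -3.16 and -3.20 in the RF11 trout. It fell by 5.22 on the log2 scale (standard error 0.63, 37.4-fold, adjusted p = 1.3e-06), but only 1 of the 5 RF11 arrays was well above background for it. A second FBXO32 probe named in the scanner files was well above background on all F0 and no RF11 array and was at least 49.9-fold lower (adjusted p = 9.53e-09). The fasted trout were widely spread for this gene, with fish 3 and 7 high and fish 2 lowest, and every refed fish was below fish 2. TRIM63, the other classical ligase of muscle wasting, had a smaller change. Its levels were -0.46, 0.17, 0.22, -0.08 and -0.05 in the F0 trout and -0.58, -0.50, -1.15, -1.12 and -0.67 in the RF11 trout, and it fell by 0.76 on the log2 scale (standard error 0.19, 1.7-fold, adjusted p = 0.00342). The groups came within a small distance of each other without overlapping. The ligase MKRN1 read 2.34, 3.28, 2.05, 1.53 and 2.47 in the F0 trout and -0.64, -0.82, -0.84, -1.29 and -1.33 in the RF11 trout, and it fell by 3.32 on the log2 scale (standard error 0.30, 9.97-fold, adjusted p = 2.5e-08). UBE2J1, a conjugating enzyme of the endoplasmic reticulum, fell by 3.59, ASB13 by 2.71 and RNF11 by 2.42. FBXO30 was well above background on no RF11 array and was at least 3.58-fold lower. Among all 32 members, the conjugating enzyme UBE2D4 and the ligase RNF220 went the other way: UBE2D4 read 0.23, -0.28, 0.78, 0.81 and 1.35 in the F0 trout and 2.93, 3.64, 2.70, 3.43 and 3.41 in the RF11 trout, and it rose by 2.64 on the log2 scale (standard error 0.29, 6.24-fold, adjusted p = 3.03e-07). Its RF11 fish all lay above the highest F0 fish.

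Most named genes of autophagy and of the lysosome were lower too. Of 25 tested members, 23 fell, 1 rose and 1 did not pass (median -1.52), against 12.3% of all probes lower. The heat map listing named 24 of the 25. ATG4B, the protease that processes LC3-type proteins for attachment to the autophagosome, read 3.31, 4.11, 3.65, 2.64 and 3.79 in the F0 trout and -1.09, -1.24, -1.44, -1.60 and -1.17 in the RF11 trout, and it fell by 4.81 on the log2 scale (standard error 0.26, 28-fold, adjusted p = 2.09e-11). The gap between the lowest fasted and the highest refed fish was wider than the whole spread within either group. A second ATG4B probe, named in the scanner files, was too dim to be tested, with 2 F0 and 0 RF11 arrays well above background. It read -3.21, -2.87, -2.67, -2.19 and -3.32 in the F0 trout and -2.32, -2.51, -2.86, -2.86 and -3.10 in the RF11 trout, with overlap. For ATG2A, which transfers lipids to the growing autophagosome, no RF11 array was well above background, so only a bound can be given, and it was at least 6.9-fold lower. MAP1LC3B, the LC3 protein of autophagosome membranes, read 3.49, 4.37, 4.22, 2.91 and 4.72 in the F0 trout and 2.19, 0.94, 1.63, 1.46 and 1.72 in the RF11 trout and fell by 2.36 on the log2 scale (standard error 0.30, 5.12-fold, adjusted p = 2.42e-06). Lysosomal proteases gave a like picture. Cathepsin L (CTSL1) read 5.38, 6.65, 6.21, 5.80 and 7.36 in the F0 trout and 3.33, 3.75, 3.49, 3.75 and 3.66 in the RF11 trout and fell by 2.68 on the log2 scale (standard error 0.29, 6.42-fold, adjusted p = 3.28e-07), while cathepsin B (CTSB) fell by 2.35 and cathepsin D (CTSD) by 1.77. In all 5 refed fish the CTSL1 level lay in a narrow band below the fasted range. The cargo receptor SQSTM1 fell by 1.47, the mitochondrial autophagy receptor BNIP3L by 1.78 and CALCOCO1 by 2.89. CALCOCO2, a receptor for bacteria and other cargo in mammals, rose by 1.96, and ATG4A had a change of -0.12 that did not pass and had the opposite sign under scaling to the array median (0.03). Lysosomal genes are also expressed in leukocytes. Of the 3 leukocyte markers with a named probe 1 rose (CYBB) and 2 fell (CXCR2 and DOCK2), with a sum of 3.34 to 7.28 in F0 and 1.95 to 2.99 in RF11, and their part in the change was not tested.

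Both proteasome genes matched by symbol fell, ECM29, a proteasome adaptor, by 2.27 and PSMA1, a subunit of its core, by 1.04. The 36 other genes of the list were not matched by symbol. A scanner-file probe named MSS1, a name also used for the listed subunit PSMC2, differed by -0.47 (adjusted p = 0.151) and did not pass. Among the calpains, cytosolic proteases that act on the cytoskeleton, both genes that passed encode regulators. The calpain inhibitor CAST read 6.75, 7.88, 7.39, 6.55 and 7.83 in the F0 trout and 6.15, 5.66, 5.33, 6.46 and 5.56 in the RF11 trout and fell by 1.45 on the log2 scale (standard error 0.33, 2.73-fold, adjusted p = 0.00176), with RF11 fish 5 close to the lowest fasted fish. The small regulatory subunit CAPNS1 fell by 1.38. For the catalytic subunits CAPN1 and CAPN2 the changes were 0.13 (standard error 0.29) and -0.06 (standard error 0.18), and neither passed; the sign for CAPN2 turned to 0.08 under scaling to the array median.

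The largest falls among named genes detected in both groups were those of PDK1 and CPT1A, which control fuel use. PDK1, a kinase that shuts off pyruvate dehydrogenase and so spares glucose, read 4.85, 4.48, 3.76, 3.12 and 4.09 in the F0 trout and -1.58, 0.29, -2.38, -2.01 and -1.63 in the RF11 trout, and it fell by 5.52 on the log2 scale (standard error 0.50, 45.9-fold, adjusted p = 2.47e-08). Refed fish 2 stood above the other refed fish and still below every fasted fish. CPT1A, which carries long-chain fatty acids into mitochondria for oxidation, read 3.94, 3.41, 3.29, 1.83 and 2.85 in the F0 trout and -4.15, -1.23, -2.37, -2.23 and -1.07 in the RF11 trout, and it fell by 5.27 on the log2 scale (standard error 0.56, 38.7-fold, adjusted p = 2.2e-07). Here RF11 fish 1 was the lowest. PDK2 was well above background on no RF11 array and was at least 7.96-fold lower. LIPE, hormone-sensitive lipase, which releases fatty acids from stored fat, read 4.03, 4.49, 4.20, 2.82 and 4.37 in the F0 trout and 0.94, 0.78, 1.32, 1.26 and 0.90 in the RF11 trout and fell by 2.94 on the log2 scale (standard error 0.24, 7.67-fold, adjusted p = 8.11e-09). The refed fish differed little among themselves, and the fasted fish 5 lay apart from the other fasted fish, on the side of the refed group. The mitochondrial enzyme ACADS fell by 2.63, the peroxisomal enzyme HACL1 by 2.15 and TXNIP, an inhibitor of glucose uptake, by 1.52. In all, 10 of 11 tested genes of this list fell (median -2.15), against 12.3% of all probes, and all 11 were named from the heat map listing. The exception, CROT, a peroxisomal acyltransferase, is unsettled, because 1 of its probes rose and 2 fell. A scanner-file probe named only by the word carnitine fell by 3.70 (adjusted p = 5.36e-08), while probes named only fatty and lipoprotein rose by 1.73 (adjusted p = 0.0127) and 2.53 (adjusted p = 0.00354). Another metabolism probe, named only delta, was well above background on no F0 array and was at least 6.59-fold higher (adjusted p = 7.25e-05).

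**Figure D2:**
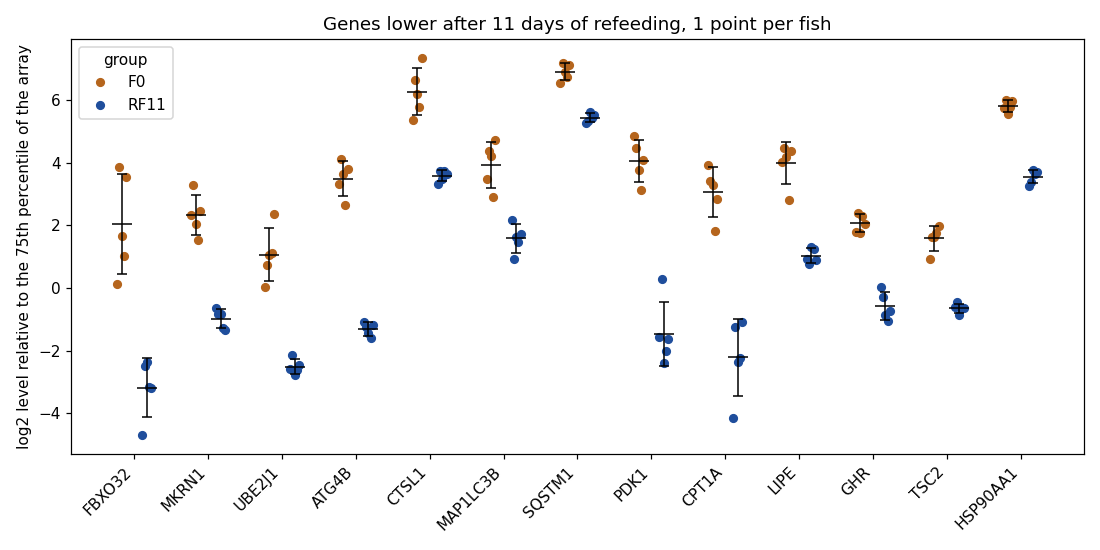
Levels of genes that were lower after 11 days of refeeding (vertical axis, log2 above or below the 75th percentile of its array), with 1 point per fish, F0 in brown and RF11 in blue, and the mean and SD of each group as black lines. The F0 fish lie above the RF11 fish for each gene drawn, as for FBXO32, where fasted fish run from 0.14 to 3.86 and refed fish from -4.69 to -2.35; heights are not comparable between genes.

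Named genes that relay or restrain growth signals were all lower at the probe taken. Of 34 genes in the growth hormone, insulin-like growth factor and mTOR list only 14 had a named probe, each from the heat map listing. All 14 of these fell (median -1.77), against 12.3% of all probes. The growth hormone receptor (GHR) read 1.80, 2.41, 1.77, 2.31 and 2.05 in the F0 trout and 0.04, -0.29, -0.85, -1.06 and -0.73 in the RF11 trout, and it fell by 2.64 on the log2 scale (standard error 0.25, 6.25-fold, adjusted p = 4.88e-08). All refed fish were near or below 0, whereas the fasted fish were near 2. Several of the falling genes are brakes on growth in other vertebrates. TSC2, which holds mTOR complex 1 inactive, read 0.93, 1.64, 1.64, 1.75 and 1.97 in the F0 trout and -0.60, -0.45, -0.86, -0.65 and -0.65 in the RF11 trout and fell by 2.23 on the log2 scale (standard error 0.21, 4.69-fold, adjusted p = 3.79e-08). EIF4EBP3L, of a family that binds the cap-binding factor eIF4E and blocks translation, read 4.98, 5.36, 5.66, 5.38 and 4.85 in the F0 trout and 3.65, 3.49, 3.70, 3.55 and 3.43 in the RF11 trout and fell by 1.68 on the log2 scale (standard error 0.20, 3.21-fold, adjusted p = 1.38e-06). No refed fish reached the fasted range for either of these brakes. SLC38A9, a lysosomal amino acid sensor that activates mTOR complex 1, also fell, by 2.12. SOCS2, a feedback inhibitor of growth hormone signalling, was well above background on no RF11 array and was at least 2.72-fold lower. DDIT4L, another mTOR inhibitor, is unsettled: its brighter probe fell by 2.12 and its other probe rose.

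Named genes for making ribosomes and protein gave a mixed account. Of 56 genes in the ribosome assembly list only 18 had a named probe in the shortened listing, so its count says little of the list as a whole. Of 17 tested genes for ribosome assembly and ribosomal RNA synthesis, 13 fell, 0 rose and 4 did not pass (median -1.05), against 12.3% of all probes lower. RRN3, the initiation factor of RNA polymerase I, read 0.88, 1.45, 1.20, 1.02 and 1.57 in the F0 trout and -0.56, -0.18, -0.59, -0.46 and -0.54 in the RF11 trout and fell by 1.69 on the log2 scale (standard error 0.21, 3.23-fold, adjusted p = 1.5e-06). TWISTNB, a subunit of that polymerase, fell by 2.23 and POLR3GL, of polymerase III, by 2.01. NOB1, the nuclease that finishes the small subunit RNA, read 6.35, 5.56, 5.76, 6.00 and 5.70 in the F0 trout and 4.41, 4.74, 5.00, 4.94 and 4.99 in the RF11 trout and fell by 1.05 on the log2 scale (standard error 0.19, 2.08-fold, adjusted p = 0.000138). Nucleolin (NCL) fell by 0.73 (adjusted p = 0.00261), and this did not hold under scaling to the array median, where it was -0.59 with an adjusted p of 0.0853. Probes matched to cytosolic ribosomal proteins, all 13 named from the heat map listing, fell in 12 cases (median -2.39, or -2.08 with 2 dim genes at their bound). RPL12 read 4.38, 5.42, 4.75, 4.47 and 5.20 in the F0 trout and 1.46, 0.56, 1.76, 1.09 and 0.46 in the RF11 trout and fell by 3.78 on the log2 scale (standard error 0.27, 13.7-fold, adjusted p = 8.48e-10). Ribosomal proteins belong to families with many copies, and how far these probes tell the copies apart is not given in the sources used here.

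Among 17 tested translation factors and tRNA synthetases of 48 in the list, 6 rose, 10 fell and 1 did not pass (median -0.60), and the mean over the list overlapped between the groups (-0.12 to 0.12 in F0 and -0.25 to 0.02 in RF11). All 17 were named from the heat map listing. Over all probes 15.2% were higher and 12.3% lower. The cap-binding factor EIF4E1A read -1.05, -1.47, -0.72, -0.19 and -0.52 in the F0 trout and 1.97, 2.47, 2.16, 2.5 and 2.28 in the RF11 trout, and it rose by 3.07 on the log2 scale (standard error 0.20, 8.38-fold, adjusted p = 2.43e-10). In contrast the RNA helicase EIF4A2, a partner of eIF4E in the same complex, read 3.29, 3.37, 3.29, 3.31 and 3.32 in the F0 trout and -0.43, -0.60, -0.53, -0.16 and -0.45 in the RF11 trout and fell by 3.75 on the log2 scale (standard error 0.19, 13.5-fold, adjusted p = 8.62e-12). The 5 fasted fish were almost equal for EIF4A2. Seryl-tRNA synthetase (SARS), which loads serine onto its tRNA, rose by 2.10. Alanyl-tRNA synthetase (AARS) was well above background on no F0 array and was at least 7.72-fold higher. Protein folding genes split as well. Of 36 in the list only 8 had a named probe, each from the heat map listing. These 8 had 2 higher, 4 lower and 2 not past (median -0.37). HSP30, a small heat shock protein, read -1.91, -1.78, -1.20, 0.32 and -2.90 in the F0 trout and 1.41, 1.80, 2.71, 1.5 and 4.01 in the RF11 trout and rose by 3.78 on the log2 scale (standard error 0.75, 13.7-fold, adjusted p = 0.000519). HSP90AA1, the cytosolic chaperone of myosin and of signalling kinases, read 5.75, 6.01, 5.57, 5.78 and 5.99 in the F0 trout and 3.27, 3.40, 3.76, 3.63 and 3.70 in the RF11 trout and fell by 2.27 on the log2 scale (standard error 0.16, 4.83-fold, adjusted p = 8.48e-10). Refed fish were spread widely for HSP30, with fish 6 highest, and narrowly for HSP90AA1. The HSP90AA1 values are those of the probe taken. How far that probe tells copies of the gene apart is not given in the sources used here, so its fall does not stand for all cytosolic HSP90.

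Genes of nucleotide and serine synthesis moved both ways. Of 22 in the list 9 had a named probe, each from the heat map listing, and 5 of these rose and 4 fell (median 1.46). Over all probes 15.2% were higher and 12.3% lower. MTHFD2, a mitochondrial folate enzyme that feeds purine synthesis, read -2.40, -2.73, -0.92, 0.21 and -0.26 in the F0 trout and 2.41, 3.64, 1.86, 3.04 and 2.97 in the RF11 trout, and it rose by 4.00 on the log2 scale (standard error 0.47, 16-fold, adjusted p = 8.69e-07). PHGDH, which commits glucose carbon to serine, rose by 1.99, adenosine kinase (ADK) by 2.25, dUTPase (DUT) by 2.07 and thymidine kinase (TK1) by 1.46. CTP synthase (CTPS) read 5.26, 5.39, 5.43, 5.45 and 5.50 in the F0 trout and 2.32, 2.82, 2.58, 2.81 and 2.90 in the RF11 trout and fell by 2.72 on the log2 scale (standard error 0.19, 6.6-fold, adjusted p = 7.9e-10). CAD, which begins pyrimidine synthesis, fell by 2.03, and UMPS, which completes it, by 1.52. PPAT, the entry to purine synthesis, had a change of -0.59 (adjusted p = 0.0207), which did not pass without F0 fish 4 (adjusted p = 0.0556) or without RF11 fish 5 (adjusted p = 0.0794), nor under scaling to the array median (adjusted p = 0.112).

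Named cell division genes rose with 1 exception. Of 31 tested members 30 rose and 1 fell (median 2.13, or 2.00 with 8 genes too dim in F0 set at their bound). Over all probes 15.2% were higher. The list holds 51 genes, and all 31 tested were named from the heat map listing, which was picked by outcome. The mean over the list was -0.62 to 0.36 in F0 fish and 1.87 to 2.23 in RF11 fish. PBK, a mitotic kinase, read -1.85, -3.47, -4.07, -2.40 and -4.57 in the F0 trout and 0.87, 1.08, 0.81, 1.08 and 1.03 in the RF11 trout, and it rose by 4.25 on the log2 scale (standard error 0.37, 19-fold, adjusted p = 1.66e-08), with 1 of 5 F0 arrays well above background. TOP2A, which untangles chromosomes before they separate, read -0.81, -2.42, -1.51, -0.57 and -1.59 in the F0 trout and 1.32, 1.69, 1.40, 1.55 and 1.73 in the RF11 trout and rose by 2.92 on the log2 scale (standard error 0.28, 7.55-fold, adjusted p = 6.16e-08), and 4 of 4 TOP2A probes rose. Levels in the refed fish lay within a narrow band for both genes and those in the fasted fish were scattered. Cyclin B1 (CCNB1) rose by 2.62, and KIF20A, a kinesin of cytokinesis, by 2.85, the latter with 1 of 5 F0 arrays well above background. The kinetochore protein SPC25 was at least 6.84-fold higher, the spindle pole protein ASPM at least 6.22-fold and the mitotic kinase CDC2 at least 4.96-fold, each with no F0 array well above background. CDC45L, of the helicase that opens DNA for replication, was the member that fell. It read 1.26, 0.51, 1.43, 1.88 and 0.69 in the F0 trout and -1.22, -1.20, -0.44, -0.31 and -1.29 in the RF11 trout and fell by 2.04 on the log2 scale (standard error 0.40, 4.12-fold, adjusted p = 0.00039). The slice holds several cell types, and which of them carried these transcripts was not tested.

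**Figure D3:**
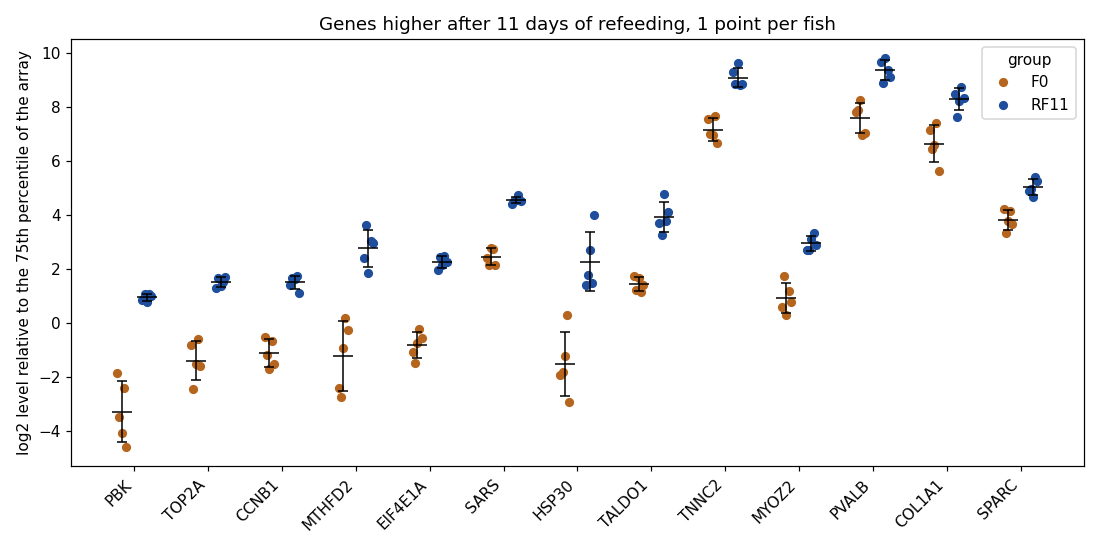
Levels of genes that were higher after 11 days of refeeding (vertical axis, log2 above or below the 75th percentile of its array), with 1 point per fish, F0 in brown and RF11 in blue, and the mean and SD of each group as black lines. PBK ran from -4.57 to -1.85 in the fasted fish and from 0.81 to 1.08 in the refed fish, and the groups are apart for each gene drawn; heights are not comparable between genes.

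Contractile and fast fibre genes rose in 14 of 19 tested cases, while 4 fell and 1 did not pass (median 1.11). Over all probes 15.2% were higher and 12.3% lower. The list holds 29 genes, and 18 of the 19 tested were named from the heat map listing. Among the 6 contractile probes named in the scanner files, 2 were higher and 0 lower. The Z-disc protein MYOZ2 read 0.61, 1.75, 0.32, 1.19 and 0.81 in the F0 trout and 2.73, 2.72, 3.11, 3.36 and 2.89 in the RF11 trout and rose by 2.02 on the log2 scale (standard error 0.24, 4.07-fold, adjusted p = 1.32e-06). Fast troponin C (TNNC2), the calcium sensor of the thin filament, read 7.56, 7.00, 6.97, 7.69 and 6.69 in the F0 trout and 9.31, 8.87, 9.64, 8.82 and 8.87 in the RF11 trout and rose by 1.92 on the log2 scale (standard error 0.26, 3.78-fold, adjusted p = 4.81e-06). Each refed fish exceeded the highest fasted fish for both. STAC3, which couples membrane excitation to contraction, rose by 2.00. Parvalbumin (PVALB), the calcium buffer of fast fibres, rose by 1.77 at its brightest probe, with 6 of 7 probes higher and 1 lower. Skeletal actin (ACTA1) rose by 0.99, with 6 of 6 probes higher. Falling members included TXLNB, a muscle taxilin, which read 6.26, 6.64, 7.00, 6.57 and 6.96 in the F0 trout and 4.52, 4.83, 4.44, 5.05 and 4.74 in the RF11 trout and fell by 1.97 on the log2 scale (standard error 0.19, 3.91-fold, adjusted p = 5.98e-08), as well as MYOZ1 (-1.78) and XIRP2 (-1.57). Every TXLNB level in refed fish was more than 1 unit below the lowest fasted level. Muscle creatine kinase (CKM) fell by 0.60 (adjusted p = 0.0195), and this call was lost under scaling to the array median (-0.46, adjusted p = 0.168).

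Of 7 tested myogenic regulators, which direct precursor cells into muscle fibres, 3 rose, 2 fell and 2 did not pass, and the mean over the list overlapped between the groups (-0.11 to 0.30 in F0 and -0.13 to 0.09 in RF11). Of these 7, 4 were named from the heat map listing. Over all probes 15.2% were higher and 12.3% lower. MYF5, a marker of muscle precursor cells, read 1.38, 1.10, 0.91, 1.10 and 1.61 in the F0 trout and 1.52, 2.20, 2.16, 1.59 and 2.15 in the RF11 trout and rose by 0.70 (adjusted p = 0.00807), with the groups overlapping. Myogenin (MYOG), which drives differentiation, read -0.42, -0.05, -0.30, 0.16 and -0.36 in the F0 trout and 0.50, 0.44, 0.07, 0.22 and 0.21 in the RF11 trout and rose by 0.48 (adjusted p = 0.0162), also with overlap. MYOD1 differed by -0.19 (adjusted p = 0.568) and MYF6 by 0.41 (adjusted p = 0.172). HES6, a cofactor that promotes myogenic differentiation in frogs and mice, rose by 0.89, and its refed range was above its fasted range.

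Genes of the extracellular matrix rose in 21 of 23 tested cases, with 1 fall and 1 that did not pass (median 1.21). Over all probes 15.2% were higher. The list holds 35 genes, and all 23 tested were named from the heat map listing. Collagen I alpha 1 (COL1A1), the main fibrillar collagen chain, read 7.18, 6.46, 6.62, 7.43 and 5.63 in the F0 trout and 8.51, 7.66, 8.25, 8.77 and 8.36 in the RF11 trout and rose by 1.64 on the log2 scale (standard error 0.30, 3.13-fold, adjusted p = 0.000217), with 13 of 13 probes higher. MFAP2, a microfibril protein, read 1.14, -0.22, 0.29, 1.26 and -0.31 in the F0 trout and 1.83, 2.02, 2.95, 3.02 and 2.71 in the RF11 trout and rose by 2.08 on the log2 scale (standard error 0.29, 4.22-fold, adjusted p = 9.23e-06). Both genes had fasted fish 2 and 5 nearest to the refed group. SPARC, a collagen-binding glycoprotein, rose by 1.21 at the probe taken, and 6 of 6 probes rose. Periostin (POSTN) read 0.78, 0.78, 0.67, 0.79 and -0.45 in the F0 trout and 2.18, 1.77, 2.04, 2.02 and 2.59 in the RF11 trout and rose by 1.61 on the log2 scale (standard error 0.27, 3.05-fold, adjusted p = 7.1e-05). OGN, a small proteoglycan, had a change of 0.40 (adjusted p = 0.086), and it passed without RF11 fish 4 (0.51, adjusted p = 0.0341) and under scaling to the array median (0.54, adjusted p = 0.0315). The falling gene was CTGF, a growth factor-binding matricellular protein and a target of mechanical signals, which read -0.04, 1.97, 2.74, 1.60 and 2.65 in the F0 trout and -1.05, -0.98, -1.36, -2.69 and -0.80 in the RF11 trout and fell by 3.16 on the log2 scale (standard error 0.45, 8.96-fold, adjusted p = 1.09e-05). Refed fish all lay below the lowest fasted fish for CTGF, although fish 2 of the fasted group came near. Of the 5 endothelial markers with a named probe 1 rose (MCAM), 3 fell and 1 did not pass, with a sum of 6.99 to 10.8 in F0 and 4.48 to 6.18 in RF11, and no fibroblast list was measured beside the matrix genes themselves, so a change in cell makeup was not tested.

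In energy metabolism, respiratory chain and import genes were divided, with 3 of 13 tested higher, 6 lower and 4 not past (median -0.37). All 13 were named from the heat map listing. Over all probes 15.2% were higher and 12.3% lower. UQCR10, of complex III, read 6.51, 6.48, 6.53, 5.38 and 7.20 in the F0 trout and 3.78, 3.70, 3.58, 4.29 and 4.13 in the RF11 trout and fell by 2.52 on the log2 scale (standard error 0.32, 5.75-fold, adjusted p = 2.13e-06). NDUFS1, of complex I, fell by 1.94 and the import subunit TIMM22 by 2.20, whereas the import subunit TOMM5 rose by 1.48. Glycolysis and glycogen genes rose in 5 of 7 cases and fell in 2 (median 0.93), against 15.2% of all probes higher, and all 7 were named from the heat map listing. Transaldolase (TALDO1), of the pentose phosphate pathway, read 1.76, 1.23, 1.70, 1.18 and 1.44 in the F0 trout and 3.71, 3.27, 4.78, 3.80 and 4.14 in the RF11 trout and rose by 2.48 on the log2 scale (standard error 0.31, 5.56-fold, adjusted p = 2.15e-06). UGP2, which makes the sugar donor of glycogen synthesis, rose by 2.43, PFKFB1, which sets the level of the glycolytic activator fructose 2,6-bisphosphate, by 2.29 and pyruvate kinase (PKM) by 0.93. The falls were in PHKA1, a subunit of the kinase that switches on glycogen breakdown (-2.34 (adjusted p = 1.11e-05)), and in GPD1 (-1.40 (adjusted p = 0.000156)). Refed and fasted fish did not overlap for TALDO1, UQCR10 or PHKA1. Of 16 genes in the chromatin list only 5 had a named probe, each from the heat map listing. All 5 of these fell (median -1.42), against 12.3% of all probes. Among them, EZH1, which methylates histone H3 at a repressive site, read 1.42, 1.81, 1.57, 1.14 and 1.55 in the F0 trout and -0.10, -0.17, -0.13, 0.07 and -0.07 in the RF11 trout and fell by 1.58 on the log2 scale (standard error 0.16, 2.99-fold, adjusted p = 9.76e-08), while KDM4A is a demethylase.

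**Figure D4:**
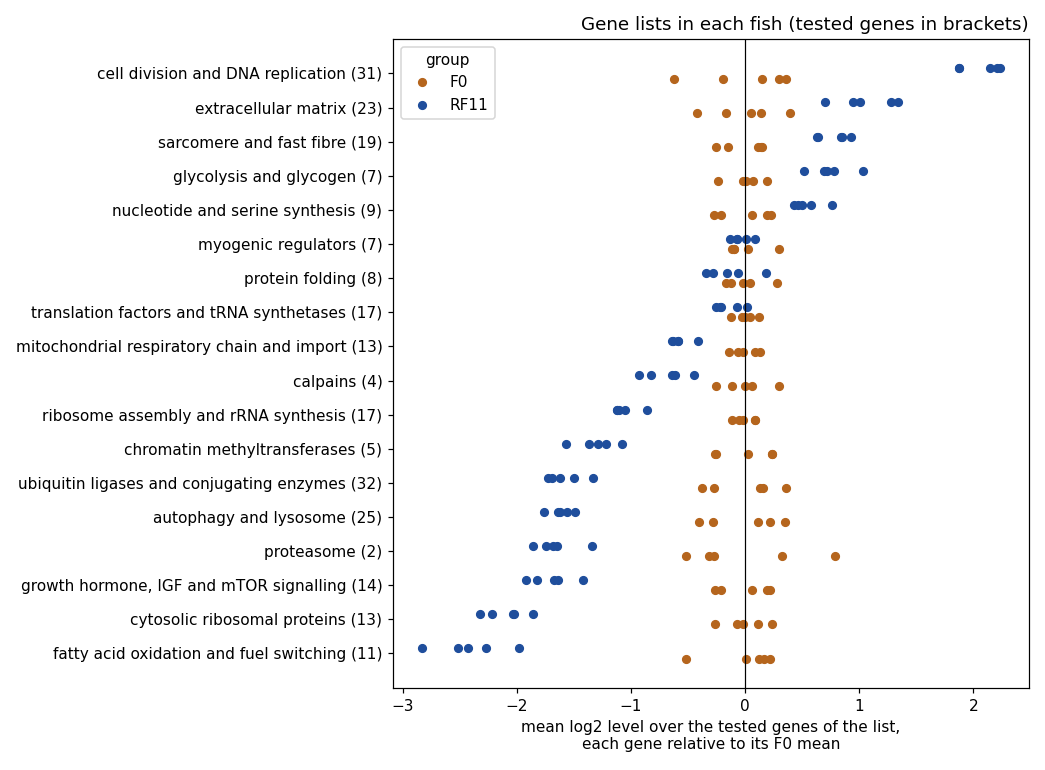
Mean log2 level over the tested genes of each list in each fish, every gene taken relative to its F0 mean (horizontal axis), with lists on the vertical axis, F0 fish in brown and RF11 fish in blue. The groups are apart in every list except myogenic regulators, protein folding, and translation factors with tRNA synthetases; cell division lies furthest up (1.87 to 2.23 in RF11) and fatty acid oxidation and fuel switching furthest down (-2.83 to -1.98).

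Beyond the lists, the 15 largest rises among named genes that were detected in both groups included PACSIN3, a membrane-bending protein of muscle, which read -4.10, -2.53, -3.07, -2.56 and -4.50 in the F0 trout and -1.57, -0.07, -0.55, -0.34 and -0.10 in the RF11 trout and rose by 2.83 on the log2 scale (standard error 0.45, 7.1-fold, adjusted p = 4e-05), with 1 of 5 F0 arrays well above background. They also included the antimicrobial peptide LEAP2 (2.80), the ribosomal oxygenase NO66 (2.65) and TMEM163 (3.01), together with probes whose closest database match was a fly actin (ACT42A, 2.67) or a bacterial outer membrane protein (OMPW, 2.72), names that cannot be taken as the identity of a trout gene. The 15 largest falls included GPR137, a lysosomal membrane protein. It read 5.71, 7.12, 6.69, 6.04 and 7.57 in the F0 trout and 2.31, 2.53, 2.62, 2.45 and 2.01 in the RF11 trout and fell by 4.24 on the log2 scale (standard error 0.29, 18.9-fold, adjusted p = 6.12e-10). The homeobox gene ENG2B fell by 3.94, ZNF175 by 3.61, EXD3 by 3.51, POLR2D, a subunit of RNA polymerase II, by 3.39 and the transporter ABCC5, with 2 of 5 RF11 arrays well above background, by 3.37. APMAP fell by 4.00 at its brighter probe and rose at its other probe.

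How far the muscle at day 11 differed from that of other refed fish was tested in the same fit. Against RF4, 643 probes (1.91%) passed, 407 higher and 236 lower in RF11, and 463 of these had also passed against F0. An unadjusted p of 0.05 was passed by 4605. These comparisons share the RF11 arrays, so each is given with its own values. Of the named genes 112 differed from RF4, which is 16.3% of them. Among these were 7 of 19 sarcomere genes and 5 of 31 cell division genes, all higher at day 11, the latter a share near that of all named genes. The Z-disc gene MYOZ2 read 1.62, 0.91, 1.36, 1.00 and 1.03 in the RF4 trout, near its fasted levels, and RF11 exceeded RF4 by 1.78 (adjusted p = 0.000902). For TNNC2 the difference was 1.25 (adjusted p = 0.0132), for CCNB1 1.01 (adjusted p = 0.0275) and for PACSIN3 2.14 (adjusted p = 0.0156). Falls that were deeper at day 11 than at day 4 included MKRN1, with 0.77, 0.96, 1.87, 0.74 and 0.97 in the RF4 trout and a difference of -2.04 (adjusted p = 0.00136), ATG4B with -1.33 (adjusted p = 0.0103), EIF4A2 with -1.33 (adjusted p = 0.00117), CTPS with -1.43 (adjusted p = 0.000691) and TSC2 with -1.01 (adjusted p = 0.0133). TRIM63 went the other way. It read -1.90, -1.89, -1.54, -1.73 and -1.22 in the RF4 trout, and the RF11 trout stood above them by 0.85 (adjusted p = 0.02) while remaining below the fasted fish. EIF4EBP3L behaved likewise, at 1.05 (adjusted p = 0.00938). For FBXO32, PDK1 and GHR the differences from RF4 were -0.28 (adjusted p = 0.951), 0.08 (adjusted p = 0.984) and -0.02 (adjusted p = 0.993), and none passed.

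Against RF36, 2012 probes (5.99%) passed, 1076 higher and 936 lower in RF11, and 1003 of these had also passed against F0. Of the named genes 111 (16.1%) differed. Of 17 ribosome assembly genes 9 differed, all 9 higher at day 11 than at day 36. NOB1 read 3.72, 3.84, 3.91 and 3.69 in the RF36 trout, below every RF11 fish, and differed by 1.03 (adjusted p = 0.00262). TWISTNB differed by 1.04 (adjusted p = 0.00393) and NCL by 0.74 (adjusted p = 0.0175). Of the 23 matrix genes 8 differed, all 8 lower at day 11 than at day 36. MFAP2 read 3.55, 3.86, 4.18 and 4.33 in the RF36 trout and differed by -1.47 (adjusted p = 0.0055). For COL1A1 the difference of -0.90 (adjusted p = 0.099) did not pass. PHGDH differed by -1.83 (adjusted p = 0.014), so that its level was lower at day 11 than at day 36. Several genes that fell on refeeding were lower at day 11 than at day 36: CPT1A read 0.99, 0.89, -0.83 and -1.02 in the RF36 trout and differed by -2.22 (adjusted p = 0.0274), CTSL1 differed by -1.44 (adjusted p = 0.00639), MAP1LC3B by -1.60 (adjusted p = 0.00342), PHKA1 by -1.5 (adjusted p = 0.0128) and ENG2B by -3.10 (adjusted p = 1.21e-05). In each of these, the RF36 mean lay between the RF11 and the F0 means. The sizes of both counts depend on the scaling, as 197 and 1058 probes passed against RF4 and RF36 when arrays were scaled to their medians. Whether single genes kept their calls against RF4 and RF36 under that scaling was not checked.

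**Figure D5:**
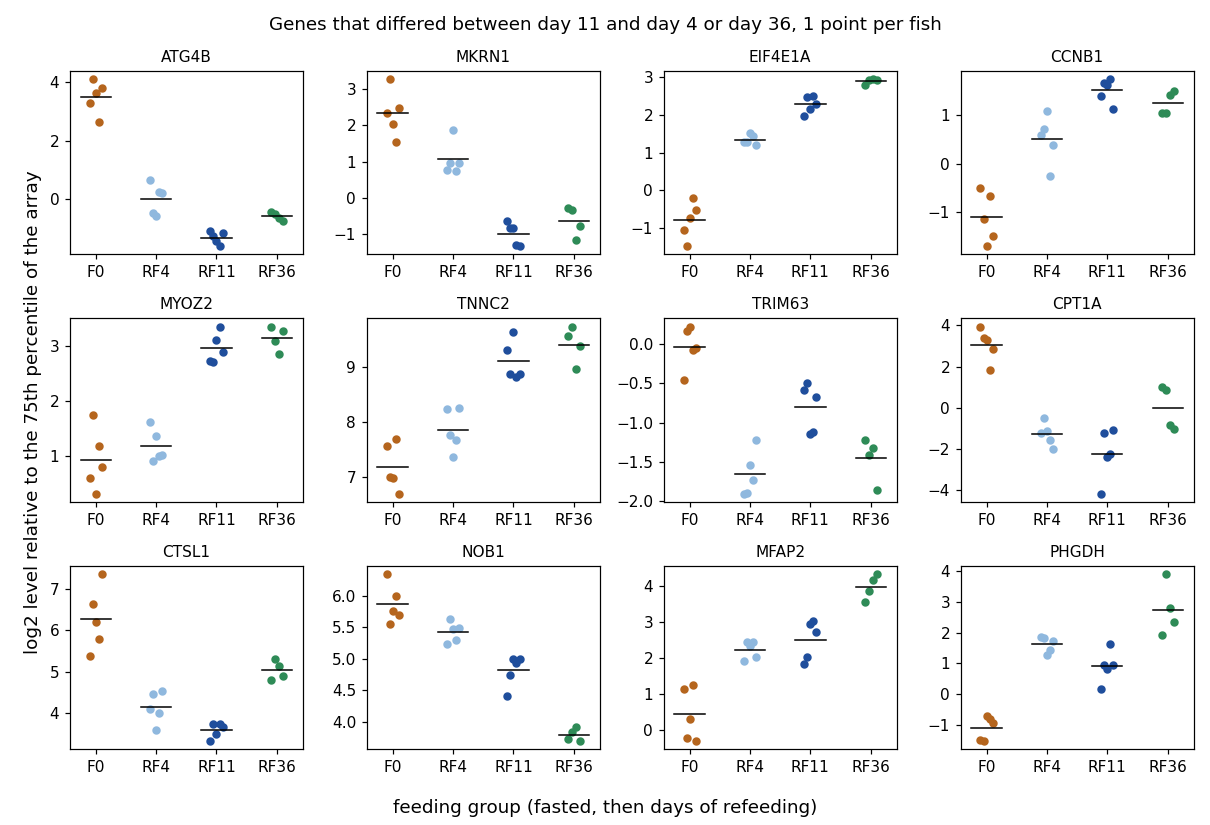
Levels of 12 genes that differed between day 11 and day 4 or day 36 (vertical axes, log2 above or below the 75th percentile of its array, a scale of its own in each panel) in the 5 F0, 5 RF4, 5 RF11 and 4 RF36 trout (horizontal axis), with 1 point per fish and the group mean as a line. MYOZ2 in RF4 is near its fasted level, TRIM63 is lowest in RF4, and the means of CPT1A and CTSL1 are lowest in RF11. For CPT1A and CTSL1 the difference between RF11 and RF4 did not pass (limma, adjusted p = 0.517 and 0.437).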

How the data were processed

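Per the labels, each array was read with Agilent Feature Extraction 10.7.3.1, whose processed signal is an intensity after background subtraction, deposited by the authors for each spot. The authors also deposited a table of log2 values of the same arrays, used here as an alternative. From the 61657 non-control spots of an array, outlier spots (145 in all) were left out, spots of a probe were averaged over 60195 probes, and log2 intensities were expressed relative to the 75th percentile. No spot was saturated (0). A probe was tested if well above background on at least 4 of the 5 arrays of F0 or of RF11 (33677 probes, 66 of them dropped for a missing value). A fit with limma 3.58.1 (R 4.3.3) over all 23 arrays, with 1 mean per group and an adjusted p threshold of 0.05, gave each two-sided contrast. The labels give each replicate only as a numbered sample of trout muscle, and the methods describe the samples as distinct trout. P-values set each difference against a spread between fish that was estimated over all 23 arrays. For a probe well above background on no array of a group, a bound was computed: the higher group's mean against the mean, per array, of the larger of the dimmest well-above-background signal and the probe's own. Where the probe's own signal is the larger, the bound equals the measured change, as for ASAH1 (-1.86). The words at least therefore hold only under this definition and do not give the detection limit of a probe.

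Gene names came from the scanner files and from 1252 rows read of a shortened copy of the study's heat map listing, which ends before the listing does; 1 probe was kept per gene, the brightest over the 10 arrays. Named genes are the 15 largest rises and 15 largest falls that did not overlap and were detected in both groups, with the extreme and best known members of each list; some list members were added after their values were seen. The members and lists were chosen with earlier results of these data known. Columns of other samples numbered 0. Alternatives were the scaling point, quantile normalization, normexp (offset 50), the authors' table, the filter on dim probes and the arrays in the fit. They were also slide and sample number as blocks, single slides, leaving out each F0 or RF11 fish, and the threshold. The fit was tested on simulated data. No probe sequence was used. Some members of the myogenic regulator list are not reported here. Figures were drawn with matplotlib 3.10.9 in Python 3.11.15.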

Additional observations from a re-analysis of the deposited data

Results flagged for a closer look

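In 17 of 284 sets of 5 fish examined (genes named here and gene lists, each within F0 or within RF11), a single fish stood apart from the other 4 by Dixon's criterion, which chance meets in about 1 of 20 sets. Among the fasted fish, F0 fish 5 was lowest for BNIP3L (2.33, next 2.96), DDIT4L (2.38, next 3.26), LIPE (2.82, next 4.03) and the mean of the fatty acid oxidation and fuel switching list (-0.52, next 0.01), and was highest for OLFML2B (-1.73, next -4.03). F0 fish 7 was highest for CAD (4.74, next 3.74), RPLP0 (3.36, next 1.99) and UMPS (2.33, next 1.83) and lowest for POSTN (-0.45, next 0.67), and F0 fish 2 was lowest for CROT (1.76, next 2.63). Among the refed fish, RF11 fish 5 was highest for AARS (0.31, next -0.24), ACT42A (4.33, next 3.86), TOMM5 (3.11, next 2.80) and the mean of the respiratory chain and import list (-0.41, next -0.59). RF11 fish 1 was highest for EXD3 (-0.32, next -1.74) and lowest for ZNF175 (-1.36, next -0.18), and RF11 fish 4 was highest for the mean of the ribosome assembly list (-0.86, next -1.05).

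The change at day 11 differed from that at another refeeding time for the following genes, each by limma's direct contrast between the refed groups under the main scaling. The probes called in these contrasts, 643 against RF4 and 2012 against RF36, became 197 and 1058 with the array median. With normexp they became 1029 and 2486. Whether single genes kept their calls in these contrasts under the alternatives was not checked. Higher at day 11 than at day 4 on the log2 scale (adjusted p from 0.000691 to 0.0474) were ACT42A 1.5, ADK 1.19, ASPM 1.74, CCNB1 1.01, EIF4E1A 0.94, EIF4EBP3L 1.05, MYOG 0.59, MYOZ2 1.78, NO66 1.37, OMPW 1.74, PACSIN3 2.14, POSTN 1.05, PVALB 1.23, RNF220 1.00, SPC25 1.32, TNNC2 1.25 and TRIM63 0.85. Lower at day 11 than at day 4 (adjusted p from 0.000691 to 0.0294) were ATG4B -1.33, BNIP3L -0.82, CTPS -1.43, CTSB -0.94, EIF4A2 -1.33, GPR137 -2.04, MKRN1 -2.04, NDUFS1 -1.49, TSC2 -1.01 and TXNIP -1.49. Higher at day 11 than at day 36 (adjusted p from 0.00262 to 0.0316) were CKM 0.73, MYF6 0.92, NCL 0.74, NOB1 1.03 and TWISTNB 1.04. Lower at day 11 than at day 36 (adjusted p from 1.21e-05 to 0.0394) were CALCOCO1 -1.17, CPT1A -2.22, CTSL1 -1.44, ENG2B -3.10, HACL1 -1.37, MAP1LC3B -1.60, MFAP2 -1.47, MYOZ1 -1.66, OLFML2B -1.80, PHGDH -1.83, PHKA1 -1.5, PKM -0.72, RNF11 -1.09 and RNF220 -0.76. RNF220 is in both comparisons, being higher in RF11 than in RF4 and lower than in RF36.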

How the results depend on the processing

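Of the counts over all probes and over all lists, 84 values under an alternative stayed within 1.5 times of the reported count and 23 did not. Scaling each array to its median left 2169 lower probes, and 2191 were lower in the values deposited by the authors. Against RF4 the count was 197 and against RF36 1058 with the array median, 206 and 1055 with the authors' table, and 1029 against RF4 with normexp. At an adjusted p of 0.01, 5989 probes passed, 2386 of them lower, and with a minimum of 2-fold 4534 passed, 2797 higher and 1737 lower. Within slide 2 the counts were 2200 (1253 higher, 947 lower) and within slide 3 3456 (1733 higher, 1723 lower). Within slide 1, with 1 F0 and 2 RF11 arrays, limma called 0 (0 higher, 0 lower) and 4669 passed an unadjusted p of 0.05; fewer arrays enter each of these fits. Leaving out 1 F0 or RF11 fish at a time gave 7828 (without RF11 fish 4) to 9527 (without RF11 fish 1) probes, 4437 to 5025 higher and 3303 to 4502 lower. The list genes called were then 230 to 237, against 237 with all fish, of 257 tested. Without the control array C0-1, which enters the shared estimate of the spread, 10243 probes passed (5578 higher, 4665 lower). Same-numbered F0 and RF11 fish did not deviate together (r of -0.218, -0.238 and -0.062 for numbers 2, 4 and 5, against -0.353 to 0.295 for other pairs). With the sample number as a replicate block 9372 probes passed (5119 higher, 4253 lower), 193 against RF4 and 1182 against RF36, and CKM, MYOG, MYOM1 and PPAT did not pass (adjusted p of 0.0775, 0.0687, 0.0724 and 0.0655).

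Signs turned only for genes that had not passed. CAPN2 was 0.08 with the array median and with the authors' table, 0.03 within slide 2, and between -0.14 and 0.01 when 1 fish was left out. ATG4A was 0.03, 0.02 and 0 with the array median, the authors' table and normexp, and 0.39 within slide 1, where CAPN1 was -0.42. CKM, NCL and PPAT did not pass with the array median or the authors' table (CKM -0.46, NCL -0.59, PPAT -0.45), nor PPAT with no filter on dim probes (adjusted p = 0.0503). Why these calls moved was not tested. Probes that are dim in a group have only a bound there, and 145 outlier spots were left out.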
